A study of Mus musculus with 12 samples.

Results

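Transcript levels of Yy2 (ENSMUSG00000091736), of its host gene Mbtps2 (ENSMUSG00000046873) and of Yy1 (ENSMUSG00000021264) were examined in the mouse forebrain, library by library. They are 3 of the 19268 genes in the table. They were selected on the measured P25 values of Yy2, which was listed at 0 in every juvenile wild-type library and above 0 in every juvenile knock-out library. Mbtps2 was taken with it because Yy2 lies inside that gene, and Yy1 because it is the parent of Yy2. The juvenile genotype values of these genes are therefore given as a description, without a test.

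The RNA came from the forebrain, without the olfactory bulb, of male C57BL/6J mice. P25-KO and P60-KO mice carried, on both copies of Shank3, a deletion that removes exons from the middle of the gene, and were examined at postnatal day 25 (juvenile) and 60 (adult). SHANK3 is a scaffold protein of the postsynaptic density. P25-WT and P60-WT mice were wild type at the same ages and carried no deletion or treatment. Each of the 4 groups had 3 libraries, which the study counted as 3 mice. The tissue is a mixture of neurons, glia and other cells. The values are counts that the authors normalized, so depth is unknown, and an estimate that failed can also appear as 0. For this reason a 0 is called listed at 0.

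YY1 is a widely expressed zinc finger transcription factor that activates or represses its targets, binds polycomb proteins and is a subunit of the INO80 chromatin remodelling complex. Yy2 is a gene without introns that is thought to have arisen in mammals when a Yy1 mRNA was copied back into the genome, inside an intron of Mbtps2, and its protein keeps the zinc fingers of YY1. Mbtps2 encodes the site-2 protease (S2P) of the Golgi membrane. This enzyme makes the second of a pair of cuts, after the site-1 protease encoded by Mbtps1, that free the sterol regulators SREBP-1 and SREBP-2 and the stress sensor ATF6 from the membrane to act in the nucleus.

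In the GENCODE M21 annotation of GRCm38, Yy2 occupied chromosome X, 157566119 to 157568985, on the minus strand, as a single exon of 2867 bases. Mbtps2 spanned chromosome X, 157535371 to 157598715, on the same strand. Yy2 lay in intron 5 of the full-length S2P transcript Mbtps2-201 (157561502 to 157572858, 11357 bases). Yy1 lay on chromosome 12, 108792973 to 108820148, on the plus strand. Thus Yy1 is unlinked to the other members.

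The transcripts of Yy2 and Mbtps2 overlapped in sequence. All 2837 words of 31 bases in the Yy2 transcript also occurred in Mbtps2-203 and Mbtps2-208. These share the first 5 exons of the S2P transcript, the first of them from a later start, and end in an exon that spans the whole of Yy2. In Mbtps2-208 that last exon (157565947 to 157569098, 3152 bases) began 113 bases before the annotated start of Yy2. The annotated coding sequence of Mbtps2-208 was that of Yy2 itself, 1134 bases long (157567635 to 157568768). The S2P transcript Mbtps2-201, with 11 exons and 1545 coding bases, held none of the Yy2 words. The processed transcript Mbtps2-202, without a coding sequence, held 671 of them (23.7%) in exons that overlap Yy2. Therefore a read from within Yy2 cannot be told apart from a read of the last exon of Mbtps2-203 or Mbtps2-208, nor in those stretches from one of Mbtps2-202, and how Salmon divided such reads between both genes was not tested.

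The junctions that separate these transcripts are shown because they are where the S2P message and the message that runs into Yy2 diverge. Both are read 5′ to 3′ with the last 15 bases of exon 5 in lower case and the first 15 bases of exon 6 in capitals.
Mbtps2-201: ggatattttgtgcagGTATATGGCATAATT
Mbtps2-208: ggatattttgtgcagTTTAGTGACGTTTCC
Exon 5 ends at the same base in both (157572859 on the minus strand). Exon 6 starts at 157561501 in Mbtps2-201 and at 157569098 in Mbtps2-208. The Mbtps2-208 junction lies 113 bases before the annotated start of Yy2, so no part of it is in the Yy2 transcript. Reads over that junction would therefore separate Mbtps2-208 from Yy2, but the deposited values are per gene and do not give them.

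**Figure D1:**
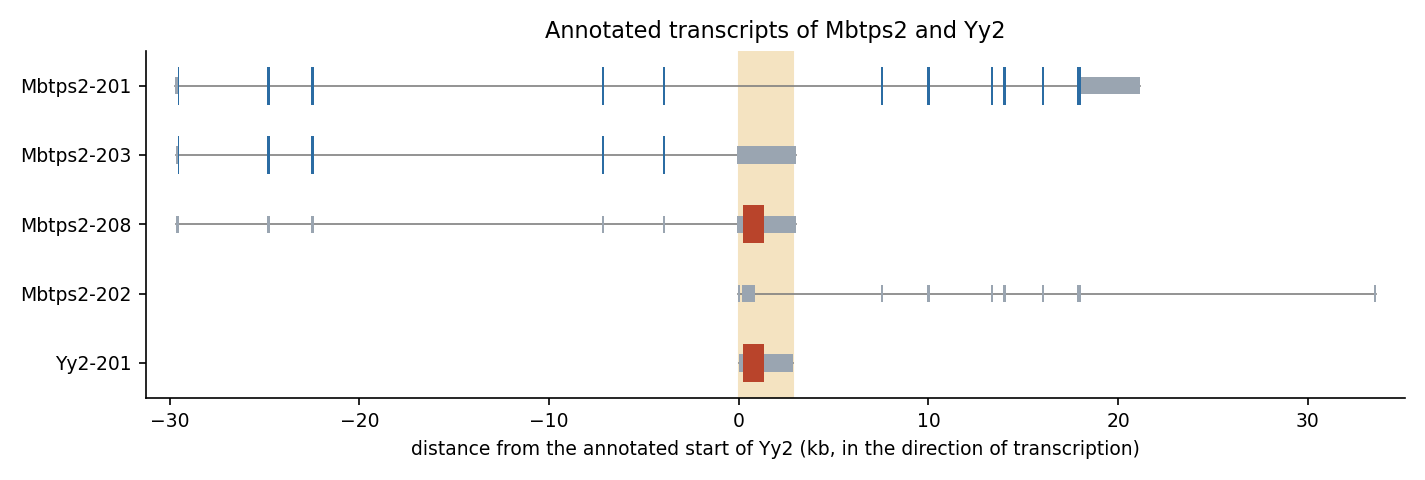
Exons (grey) and coding sequence (red for the Yy2 coding sequence, blue for that of the site-2 protease) of Yy2-201 and of the Mbtps2 transcripts that overlap or surround it, against the distance from the annotated start of Yy2 in kb, in the direction of transcription. The shaded band is Yy2; Mbtps2-203 and Mbtps2-208 end in an exon that covers it, and it lies within an intron of Mbtps2-201.

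Yy1 and Yy2 shared little sequence at the length of a word. Their coding sequences (1242 and 1134 bases) were 70.5% identical over the aligned bases. Identity was 81.4% over the last 360 bases, the end that holds the zinc fingers, and 65.3% before it. A 90-base window of this conserved end is shown because it contains the only stretch in which the 2 genes shared 31-base words. Capitals mark the 14 bases that differ.
Yy1, coding bases 1063 to 1152: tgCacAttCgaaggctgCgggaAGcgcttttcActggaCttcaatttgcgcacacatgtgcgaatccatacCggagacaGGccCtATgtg
Yy2, coding bases 955 to 1044: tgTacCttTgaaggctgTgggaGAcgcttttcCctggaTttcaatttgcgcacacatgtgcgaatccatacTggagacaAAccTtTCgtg
The shared run was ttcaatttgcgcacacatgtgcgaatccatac, 32 bases long, and gave 2 words in common. Of the 6387 words of Yy1, 10 (0.157%) occurred in any other gene. Of the 10129 words of Mbtps2, 28.0% occurred in Yy2.

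The library totals of the normalized table ran from 30568259 to 32348554, and libraries of the same group correlated across genes with r from 0.982 to 0.990. Shank3, the targeted gene, was lower in KO at both ages (log2 difference −1.06 at P25 and −0.99 at P60, with limma adjusted p = 0.0134 and 0.00220). The P25 call was lost with no intensity trend, with the replicate number as a block and without P25-KO replicate 1 or 2 (adjusted p from 0.201 to 0.412), and the P60 call with no intensity trend (0.185), while the log2 difference ran from −1.14 to −1.001 at P25 and from −1.10 to −0.94 at P60 over all alternatives. All 7 forebrain markers examined, among them Slc17a7, were above 0 in every library. P60-KO replicate 1 and P60-WT replicate 2 stood apart in the cerebellar granule cell genes Gabra6 (68.5 and 220.8 normalized counts, against 0 to 4.40 elsewhere) and Cbln3 (138 and 624, against 9.42 to 27.5).

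Per kb of the longest annotated transcript, Yy1 had 374 normalized counts on average over the 12 libraries, Mbtps2 had 161 and Yy2 had 4.29. The order was the same in every library. The ranges over libraries did not overlap, at 336 to 413 for Yy1, 131 to 204 for Mbtps2 and 0 to 13.3 for Yy2. Yy1 was 2.32 times as high as Mbtps2 on this scale. By its mean of 12.3 normalized counts (not per kb), Yy2 ranked 17113 among the 19268 genes.

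Yy2 was low and uneven. In P25-KO, replicates 1, 2 and 3 had 12.3, 26.9 and 26.0 normalized counts of Yy2, and all 3 P25-WT libraries were listed at 0. In P60-WT, the values were 38.2, 0 and 18.5, and in P60-KO they were 0, 25.8 and 0. Hence 6 of the 12 libraries were listed at 0, 3 of them at P60, and the lowest value above 0 was 12.3. The groups did not overlap at P25, which is what chose the gene (2.26% of the genes tested were separated in this direction), and overlapped at P60, where the highest value was in a WT library.

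This on-and-off pattern was not limited to Yy2. In the table, 317 genes (1.65%) were listed at 0 in at least 1 library. There were 24 genes, Yy2 included (0.125%), with at least as many zeros and at least as high a maximum. Both cutoffs were those of Yy2 itself, and its P25-WT zeros were part of the choice, so this count is a description. Yy2 was the 1 gene at 0 in all P25-WT libraries and above 0 in all P25-KO libraries, the pattern that chose it, and no gene showed the opposite. At P60 a different gene, Gm8730, was at 0 in all WT libraries and above 0 in all KO libraries.

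**Figure D2:**
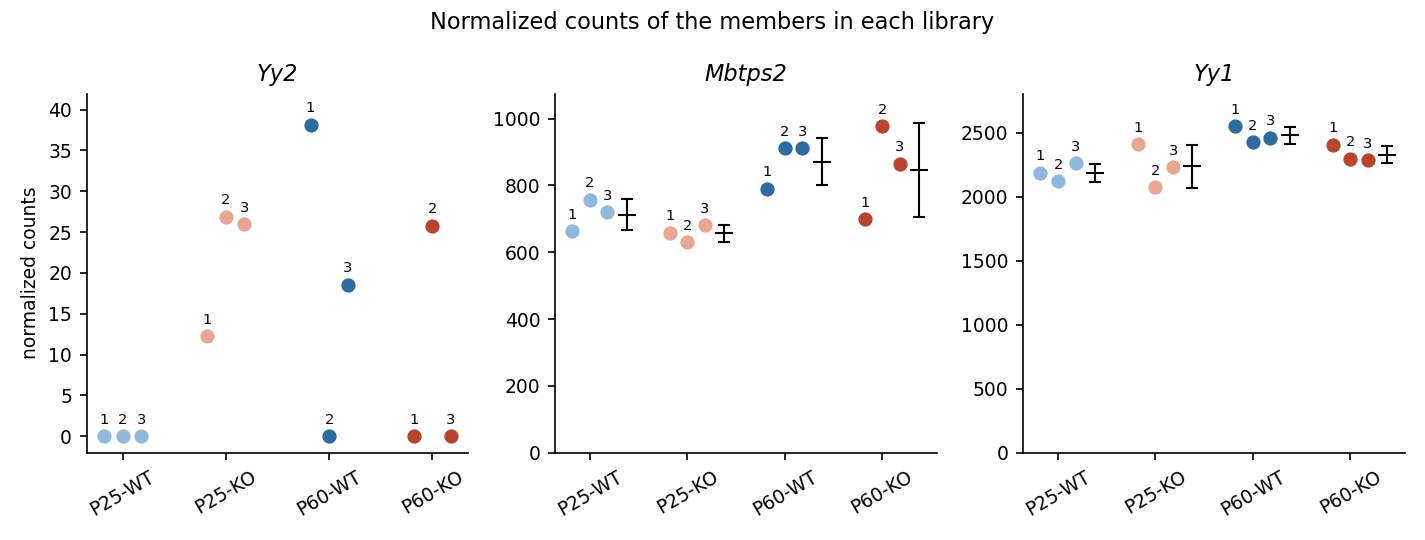
Normalized counts of Yy2, Mbtps2 and Yy1 (vertical axes, linear) in each library, numbered by replicate; bars beside the points of Mbtps2 and Yy1 are mean ± SD of 3 libraries, and none is drawn for Yy2, where a 0 can be an estimate that failed. Yy2 is at 0 in 6 libraries, 3 of them P25-WT, whereas Mbtps2 and Yy1 vary little within a group apart from Mbtps2 in P60-KO.

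At P25, Mbtps2 and Yy1 overlapped between genotypes. Mbtps2 had 659, 629.6 and 681 normalized counts in P25-KO and 663, 757 and 719 in P25-WT. In Mbtps2, 2 KO libraries were below all WT libraries. The log2 difference (KO minus WT, on log2 of the value plus 1) was −0.12 ± 0.09 (SE). Yy1 had 2410.4, 2074 and 2232 in P25-KO and 2186, 2119 and 2259.8 in P25-WT. Its log2 difference was 0.03 ± 0.08 (SE). These values belong to the contrast that chose the genes, so no p is given for them. Over all genes, the members included, limma called 1 of 17515 in this contrast (0.00571%), which was Shank3. Nothing is read from this for Yy2, which the study, with its own count test, named among the strongly upregulated genes at P25.

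At P60, in libraries that the choice of genes did not use, neither Mbtps2 nor Yy1 passed the test. Mbtps2 had 699, 978 and 864 normalized counts in P60-KO and 789, 911 and 912 in P60-WT. The KO group spread over both ends of the WT range, with 1 library below and 1 above all WT libraries. Its log2 difference of −0.05 ± 0.12 (SE, 95% interval from −0.32 to 0.22) had a limma adjusted p = 0.9995 and an exact permutation p = 0.8. It turned to 0.08 without P60-KO replicate 1, and to 0.12 without this library and P60-WT replicate 2, the pair high in cerebellar markers.

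For Yy2 at P60 the log2 difference was −1.61. It is given as a description, because 3 of the 6 values were listed at 0 and because the gene reached the minimum mean of 10 only through its WT values. Of the 3 P60 libraries at 0, P60-KO replicate 1 and P60-WT replicate 2 were those with high Gabra6 and Cbln3, and P60-KO replicate 3 was not high in either. The part of these markers in the Yy2 values was not tested. Without both libraries the log2 difference was −2.42. It was −3.21 without P60-WT replicate 2, −3.19 without P60-KO replicate 2 and −0.82 without P60-KO replicate 1 or 3, so its size rests on single libraries. It was −0.91 with a pseudocount of 5.

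Yy1 had 2407, 2296 and 2286 normalized counts in P60-KO and 2552, 2424 and 2462 in P60-WT. Every KO value was under every WT value, as were those of 3.63% of the genes tested. The difference was small, at −0.09 ± 0.05 on the log2 scale (SE, 95% interval from −0.21 to 0.03). It did not pass in limma (adjusted p = 0.9995), where 1 gene of 17610 (0.00568%), Shank3, was called. The exact permutation p of 0.1 was the smallest that 3 against 3 libraries can give.

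Whether the genotype difference changed between ages was not tested for the members, because that difference contains the P25 genotype contrast that chose them. In the table as a whole, limma called no gene of 17594 for a genotype by age interaction, and 288 had an unadjusted p under 0.05.

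The sum of Yy2 and Mbtps2 was taken because reads match both genes. How far the sum itself depends on the division of these reads, and on the lengths used in normalization, was not tested. In P25-KO the sum was 671, 656 and 707 normalized counts, and in P25-WT it was 663, 757 and 719. The sum thus overlapped between genotypes at P25, with means of 678 ± 26.0 in KO and 713 ± 47.1 in WT (SD, n = 3 each). Its log2 difference was −0.07 (from −0.12 without P25-WT replicate 1 to −0.03 without P25-WT replicate 2), against −0.12 for Mbtps2 alone (from −0.17 to −0.07 without the same libraries). In P60-KO the sum was 699, 1003 and 864, and in P60-WT it was 828, 911 and 930.2. The P60 difference of −0.07 had an exact permutation p = 0.8 and changed sign, to 0.07, without P60-KO replicate 1.

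Yy2 made up a small share of the sum. In the P25-KO libraries its share was 1.83%, 4.096% and 3.67%, and in the P25-WT libraries it was 0%. At P60 it was 4.61%, 0% and 1.99% in WT and 0%, 2.57% and 0% in KO. Therefore, wherever Yy2 was above 0, Mbtps2 exceeded it many times over, and the swings of Yy2 between 0 and 38.2 were smaller than the range of Mbtps2 among the P60-KO libraries, from 699 to 978. The log2 ratio of Yy2 to Mbtps2, with 1 added to each, ran from −5.64 to −4.50 in P25-KO and from −9.57 to −9.38 in P25-WT. At P60 it ran from −9.76 to −5.19 in KO and from −9.83 to −4.34 in WT, so the groups overlapped, and the difference was −1.56, given as a description because of the Yy2 values listed at 0. It was −3.19 without P60-WT replicate 2, −3.03 without P60-KO replicate 2, −0.90 and −0.75 without P60-KO replicates 1 and 3, and −0.44 and −1.05 without P60-WT replicates 1 and 3.

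**Figure D3:**
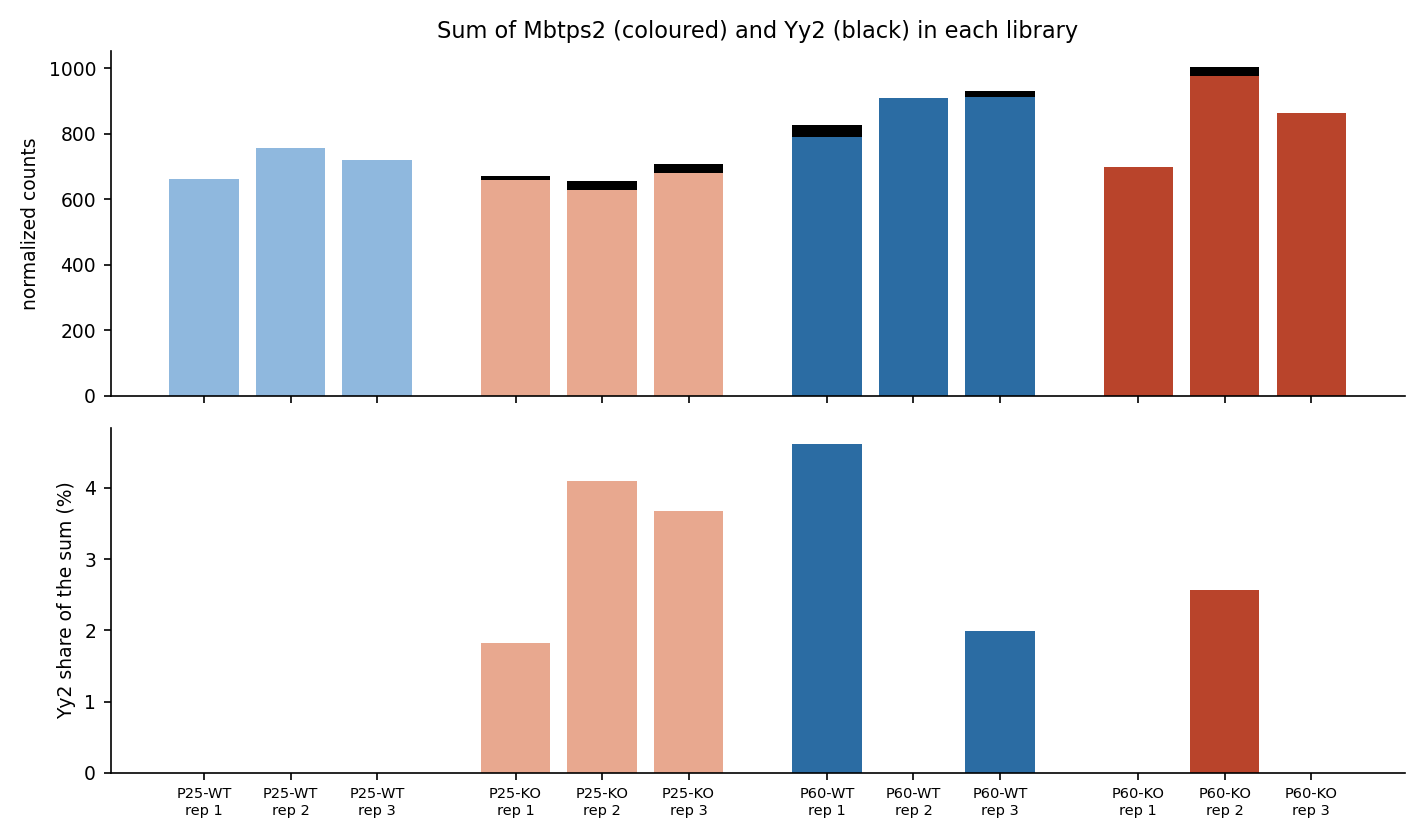
Top, normalized counts of Mbtps2 (coloured by group) with Yy2 stacked on it in black, for each library; bottom, the share of Yy2 in that sum in percent. Yy2 adds at most 4.61% to the sum, and the sum of every P60 library but P60-KO replicate 1 is above those of all P25 libraries.

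With age, Mbtps2 was higher. From P25 to P60 it went from 713 ± 47.1 to 871 ± 70.3 normalized counts in WT and from 657 ± 25.8 to 847 ± 140.1 in KO (SD, n = 3 each). In both genotypes all 3 P60 libraries lay above all 3 P25 libraries, as did those of 17.6% of the genes in WT and 18.9% in KO. Age was first compared with both genotypes weighted equally, so that the P25 difference between KO and WT, which chose the genes, cancels. Permuting age within genotype, the log2 difference was 0.32 (1.25-fold), with an exact permutation p of 0.005, the smallest that the 400 arrangements can give. The limma fits within 1 genotype share the P25 libraries with the choosing contrast and are not independent of it. In these the log2 difference was 0.29 ± 0.10 in WT (SE, 95% interval from 0.06 to 0.51, adjusted p = 0.104) and 0.35 ± 0.11 in KO (SE, from 0.10 to 0.60, adjusted p = 0.0495). The KO value was just under the threshold, the WT value was over it, and nothing is read from this. The KO call was lost without any P25-KO library, or without P60-KO replicate 2 or 3 (adjusted p from 0.0891 to 0.137), and was kept without P60-KO replicate 1 (0.0120). The WT call was made without P25-WT replicate 2 (0.0499).

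Many genes differed with age. In WT, 8.65% of genes were called (644 or 3.66% higher and 877 or 4.99% lower), and in KO 20.7% were called (1649 or 9.37% higher and 1992 or 11.3% lower). When each library was scaled to the same total, the split turned to 991 higher and 681 lower in WT and to 2108 higher and 1620 lower in KO. Mbtps2 stood higher under every scaling tried. Markers of other cells moved with age too: all 8 oligodendrocyte markers fell in both genotypes, with summed levels of 400102 to 517899 at P25 and 194783 to 222470.2 at P60, and all 5 blood markers fell. Their part in the age difference of Mbtps2 was not tested. In such bulk tissue, fewer cells of a type and less RNA per cell cannot be told apart.

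For Yy1 the age difference was smaller. It went from 2189 ± 70.2 to 2479 ± 65.6 normalized counts in WT and from 2239 ± 168.5 to 2329.6 ± 67.2 in KO (SD, n = 3 each). The WT groups did not overlap, as for 17.6% of genes higher at P60, and the KO groups did. Permuting age within genotype gave a log2 difference of 0.12 (1.09-fold) and an exact permutation p of 0.025, which was 0.055 without P25-KO replicate 2 and 0.08 without both libraries high in cerebellar markers. The limma fits within 1 genotype, which are not independent of the choice of genes, did not call it. The log2 difference was 0.18 ± 0.07 in WT (SE, adjusted p = 0.139) and 0.06 ± 0.07 in KO (SE, adjusted p = 0.560), where it ran from 0.0058 without P25-KO replicate 2 to 0.11 without P25-KO replicate 1.

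The sum of Yy2 and Mbtps2 differed with age like Mbtps2 alone, by 0.32 on the log2 scale in both genotypes. In WT all P60 sums were above all P25 sums. In KO they overlapped, since P60-KO replicate 1 (699) was below P25-KO replicate 3 (707). Yy2 itself was above 0 in 2 more WT libraries at P60 than at P25, and in 2 fewer KO libraries. Because its P25 values chose the gene, this number could not fall in WT or rise in KO, and nothing is read from it.

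The rest of the S2P pathway gave a context for Mbtps2. Among 17 measured genes of the machinery, limma called none between genotypes at either age, and none had an unadjusted p under 0.05, beside 1.36% of all genes at P25 and 2.5% at P60. Mbtps1, the site-1 protease that makes the first cut, did not pass with age either (log2 difference 0.14 ± 0.08 in WT and 0.14 ± 0.06 in KO, SE). In WT, 1 of the 17 was called with age: Atf6b, a relative of Atf6, fell by 0.31 (adjusted p = 0.0373). In KO, 6 were called, 2 higher and 4 lower. Over all genes tested the shares called were 8.65% in WT and, in KO, 9.37% higher and 11.3% lower. Atf6, the stress sensor cut by S2P, rose by 0.30, and Srebf1, which encodes SREBP-1, rose by 0.20. Srebf2, which encodes SREBP-2, fell by 0.21, and Scap, its escort to the Golgi, fell by 0.17. Insig1, which holds SCAP in the endoplasmic reticulum, fell by 0.34, and Atf6b fell by 0.37. The median of the list was −0.11 in WT and −0.13 in KO, beside −0.00 and 0.01 over all genes tested. The KO calls were few without single libraries: the 4 lower calls became 1 without P25-KO replicate 2 or P60-KO replicate 1 and 2 without P25-KO replicate 3, and the 2 higher calls became 0 without P25-KO replicate 3 and 1 without any other library. The WT call was lost without P25-WT replicate 1 or any P60-WT library, and became 3 without P25-WT replicate 2 and 2 without P25-WT replicate 3. After scaling the libraries to equal totals, none was called lower in WT and 2 were called lower in KO.

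**Figure D4:**
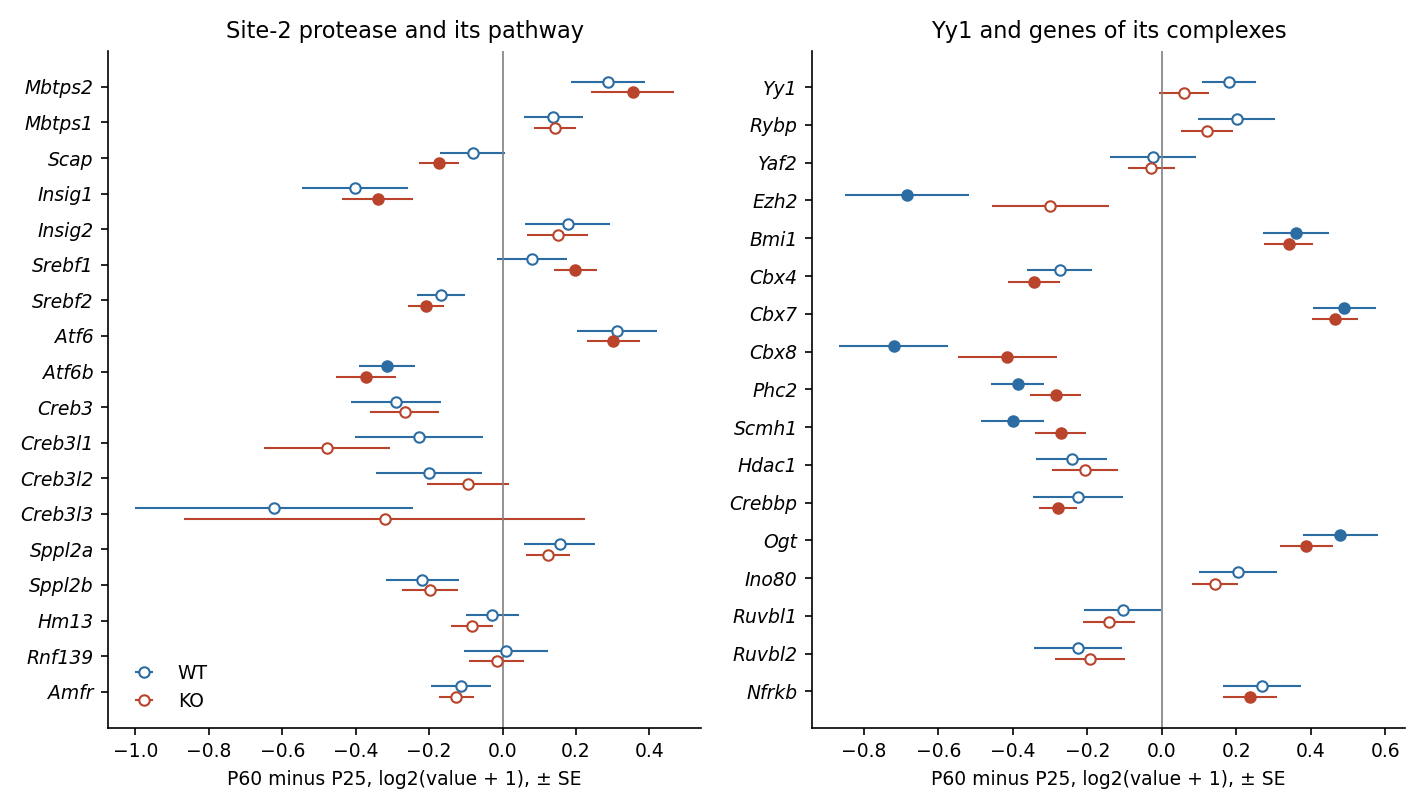
Log2 difference of P60 minus P25 (horizontal axes, log2 of the value plus 1, bars are SE of the limma fit on 6 libraries) in WT (blue) and KO (red), for Mbtps2 with the S2P machinery (left) and Yy1 with named genes of its complexes (right). Filled points passed an adjusted p of 0.05; Mbtps2 is filled in KO alone, and Yy1 in neither.

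The SREBP list holds genes of sterol and fatty acid synthesis and uptake that SREBP proteins switch on. Of 31 measured, 17 fell with age in WT and 20 in KO, where 4.99% and 11.3% of all genes tested were called lower, and none was called higher. The other 14 in WT and 11 in KO did not pass, with log2 differences up to 0.06 in WT and 0.11 in KO. The median log2 difference of the list was −0.43 in WT and −0.39 in KO. Hmgcs1, the synthase at the entry of the mevalonate pathway, fell by 0.86 in WT and by 0.79 in KO, and Mvd, a later enzyme of it, fell by 1.09 and 0.93. Cyp51, a demethylase of sterol synthesis, fell by 0.85 and 0.74. Scd2, a desaturase of fatty acids, had −0.12 in WT and −0.01 in KO and passed in neither. The fall of these genes accompanied that of the oligodendrocyte markers given above, and the part of those cells was not tested. In WT the 17 became 10 without P25-WT replicate 1 or P60-WT replicate 2 and 7 without P60-WT replicate 1 or 3. Between genotypes, none of the 31 was called by limma at either age or had an unadjusted p under 0.05, beside the same 1.36% and 2.5% of all genes.

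The ATF6 list holds chaperones, degradation factors and regulators of the unfolded protein response. Of 22 measured, 2 were called with age in WT and 4 in KO, where 8.65% and 20.7% of all genes were called. Crebrf, a regulator of the unfolded protein response, rose with age in WT (by 0.46) and in KO (by 0.63). Canx, the lectin chaperone calnexin, fell by 0.38 in WT and by 0.37 in KO. In KO, Dnajc3, a cochaperone of the endoplasmic reticulum, rose by 0.45, and Atf4, a transcription factor of the stress response, rose by 0.25. Hspa5, the main chaperone of the endoplasmic reticulum, had 0.28 ± 0.26 in WT and 0.35 ± 0.23 in KO (SE) and passed in neither. Its levels were 5656 normalized counts in P60-KO replicate 2 and 5493 in P60-WT replicate 2, against 10654 to 12172 in the other P60 libraries. At P25, replicate 2 was also the lowest library of its group, with 5956 in KO and 6039 in WT, against 7442 to 8512 in the others. The 3 KO genes that rose became 12 without P60-KO replicate 2, and 1 without P25-KO replicate 2, P60-KO replicate 1 or P60-KO replicate 3. The WT calls were lost without P25-WT replicate 1, P60-WT replicate 1 or P60-WT replicate 3, and without P60-WT replicate 2 there were 2 higher and 0 lower. With the replicate number as a block, 2 were called higher in WT. Between genotypes, none was called at either age by limma, with 1 of the 22 at an unadjusted p under 0.05 at P25 and 0 at P60, where 1.36% and 2.5% of all genes were.

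Genes whose products act with YY1 were examined next. In the INO80 complex, none of 14 was called with age in WT (4 at an unadjusted p under 0.05 in limma, as were 28.9% of all genes; 1 was called without P25-WT replicate 3 and 2 with all 12 libraries in the fit), and 1 was called in KO, where the subunit gene Nfrkb rose by 0.24 (adjusted p = 0.0440), a call lost without P25-KO replicate 1 or 3 or P60-KO replicate 1 or 3. The catalytic subunit gene Ino80 had 0.21 in WT and 0.14 in KO, and the helicase genes Ruvbl1 and Ruvbl2 had −0.11 and −0.23 in WT and −0.14 and −0.19 in KO; none of these passed. Among 33 polycomb and other cofactor genes, 4 rose and 4 fell in WT, and 4 rose and 6 fell in KO. Over all genes, 3.66% were called higher and 4.99% lower in WT, and 9.37% and 11.3% in KO. After the same scaling, 7 of the 33 were called higher in KO. The polycomb subunit gene Cbx7 rose by 0.49 and 0.47 and Ogt, which encodes an enzyme that adds sugar to nuclear proteins, rose by 0.48 and 0.39. Bmi1, of the polycomb repressive complex that modifies histone H2A, rose by 0.36 and 0.34. The paralogue Cbx8 fell by 0.72 and 0.41, and Phc2 and Scmh1, of the same complex, fell by 0.39 and 0.40 in WT and by 0.29 and 0.27 in KO. Ezh2, the polycomb methyltransferase, fell by 0.68 in WT, and its −0.30 in KO did not pass. Rybp and Yaf2, which link YY1 to polycomb proteins, had 0.20 and −0.02 in WT and 0.12 and −0.03 in KO, and neither passed. The WT counts rest on few libraries: without P25-WT replicate 1 none was called higher and 1 lower, and without any single P60-WT library 0 were called in either direction. In WT 7 were called lower without P25-WT replicate 2, and in KO 3 were called lower without P60-KO replicate 3. Between genotypes, limma called no gene of these lists at either age, with 1 of the 33 at an unadjusted p under 0.05 at P60, where 2.5% of all genes were.

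The genes beside Mbtps2 on chromosome X were also examined. Those nearest on each side with a value in the table were Sms, Phex and Ptchd1 and Smpx, Gm15169 and Klhl34, at 43.1 to 1912 kb. None was called in any of the 4 limma comparisons, and none had an unadjusted p under 0.05, which 1.36% of all genes had between genotypes at P25, 2.5% at P60, 28.9% with age in WT and 35.2% with age in KO. Sms, the nearest, encodes spermine synthase and had a log2 difference with age of 0.09 ± 0.09 in WT and 0.07 ± 0.06 in KO (SE). Smpx was under the minimum mean of 10 in every comparison, and Gm15169 was under it in the P25 and WT fits.

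Finally, the genes whose levels followed each member most closely over the 12 libraries were listed, as a description, by Pearson correlation on the log2 scale among 14767 genes. For Mbtps2 they were Atl2 (r = 0.948), Sucla2 (0.933), Fgf14 (0.921), Fmn1 (0.920) and Zmat4 (0.917). For Yy1 they were Zmym1 (0.886), Abcf2 (0.868), Mroh8 (0.866), Cry1 (0.862) and Kdm3a (0.861). With the mean of each age removed, these fell to between 0.769 and 0.886 for Mbtps2 and to between 0.723 and 0.782 for Yy1. The genes were picked as the highest over the 12 libraries, so a second measure can be lower for that reason alone. The part of age in the likeness was not tested. For Yy2 they were Catip (0.824), Ica1l (0.814), Fhad1 (0.774), Pafah2 (0.773) and Trim14 (0.761), and between 0.767 and 0.847 with the age means removed. None of these 5 was at 0 in any library. The lowest of their values was 8.69 normalized counts, in Trim14, so none shared the zeros of Yy2.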

How the data were processed

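RNA was sequenced from forebrain of 12 male mice, with 3 libraries in each of 4 groups, which were taken from the sample titles. Libraries were prepared with a TruSeq kit. The authors quantified transcripts with Salmon 1.1.0 with a correction for GC bias, imported them with tximport and normalized them with DESeq2 (1.26.0 with R 3.6.2 in the submitters' processing notes, which also name GRCm38). Their transcript set and the use of strand are not given in the sources used here. The deposited values are signal on a count scale, not whole reads, so the study's count test was not run, depth is unknown and no counting interval was computed. Where libraries were not separate animals, p-values measure only the spread between these libraries.

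Of 19268 identifiers, 19252 were found in GENCODE M21, and all 3 members matched. Transcripts were compared by words of 31 bases, and Yy1 and Yy2 coding sequences were aligned with Biopython 1.88. Genes whose mean in the fitted libraries reached 10 were tested with limma 3.58.1 in R 4.3.3 (intensity trend) on log2(value + 1), with Benjamini-Hochberg adjustment over all genes tested and a threshold of 0.05. Differences of low genes are understated on this scale. KO was compared with WT within age, and P60 with P25 within genotype. Single values were compared by two-sided exact permutation tests (SciPy 1.17.1). No test is given for Yy2 or its ratio. The procedure was tested on simulated data. The simulated differences were larger than those of Mbtps2 and Yy1 and lay in genes with higher values than Yy2. The simulation therefore does not cover differences as small, or values as low, as those reported here.

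The members, lists and tests were chosen with earlier results of these data known. Named were the members, Shank3, the nearest X chromosome genes, the S2P machinery, 16 fixed genes, up to 5 further genes per list and comparison with the smallest adjusted p, and the 5 genes most like each member. Some of these are not reported here. Creb3l4 and Zfp42, a relative of Yy1, are not analysed here. Replicate numbers were not taken to pair libraries, since in no comparison were all correlations of same-numbered libraries above 0.1. Between genotypes at P60 they were 0.060, 0.166 and 0.129 for replicates 1, 2 and 3, so a shared part of same-numbered libraries is not excluded there. Alternatives changed the pseudocount, minimum mean, scaling, variance model, libraries fitted and block, or left out libraries. Leaving out both P60 libraries high in cerebellar markers was added after the data had been seen.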

Additional observations from a re-analysis of the deposited data

How the results depend on the processing

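With 3 libraries per group and unknown depth, small differences and values near 0 are not resolved. The main exceptions follow, beside those given with each list, and their causes were not tested. The P25 difference of Yy2 (log2 4.43) was 5.39 with a pseudocount of 0.5 and 2.36 with 5, and that of its ratio to Mbtps2 (4.55) was 5.51 and 2.48, since P25-WT was listed at 0, so these give no fold. At P25, Yy2 reached the minimum mean only through its KO values, and was under it without P25-KO replicate 2 or 3. Without P60-KO replicate 1, the P60 differences of Mbtps2 and of the sum became 0.082 and 0.068 (from −0.16 to 0.082 and from −0.19 to 0.068 over the libraries left out), and without both libraries high in cerebellar markers 0.12 and 0.086. The P25 difference of Yy1 (0.03) turned to −0.024 without P25-KO replicate 1. The P60 difference of Yy2 was −0.91 with a pseudocount of 5, −2.42 without both of those libraries and −3.21 to −0.82 without single libraries (without P60-WT replicate 1 Yy2 was under the minimum mean). Mbtps2 with age in WT passed without P25-WT replicate 2 (0.33), with values from 0.24 to 0.36 over the libraries left out. In KO (0.35) its call was lost with no filter on low values (adjusted p = 0.0513), with no intensity trend (0.132), with the replicate number as a block (0.0659) and without single libraries (0.24 to 0.49). The Yy1 age difference was 0.093 to 0.15 without single libraries and 0.12 without both libraries high in cerebellar markers, where its exact permutation p was 0.08.

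Over all pathway lists, the 5 genes higher with age in WT became 0 with no intensity trend, 10 with all 12 libraries in the fit and 0 to 7 without single libraries, and the 23 lower became 7, and 7 to 32. In KO the 10 higher became 3, 5, and 5 to 18, and the 31 lower became 17 with no intensity trend and 24 to 30 without single libraries. Over all genes, the 1521 calls with age in WT became 192 with no intensity trend, 3442 with all 12 libraries and 122 to 2403 without single libraries, and the 3641 in KO became 1725 with no intensity trend and 2093 to 3230 without single libraries. The single genotype call became 0 with no intensity trend at both ages, 0 with the replicate block at P25, 0 to 8 without single libraries at P25 and 1 to 3 at P60. The replicate block changed no other call of a member.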
